A study of Gallus gallus with 6 samples.

Results

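The unsupplemented ileum of the Taiping chicken was described across all genes measured in it. The ileum is the last stretch of the small intestine. The description rests on the 3 control libraries of a series of 6, taken by their sample titles, with values for 17623 genes in each. Control birds were labelled male, of the Taiping strain and 2 months old, and ate a diet based on corn and soybean without fructooligosaccharide. The 3 libraries of birds given that sugar at 1 mL per litre of drinking water are not analysed here. The labels do not say that the 3 control libraries came from separate birds, so the spread between them may be in part technical.

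The ileal wall is a layered tissue. Its inner lining holds absorptive enterocytes, which carry a brush border of enzymes and transporters, together with goblet cells that release mucus, hormone cells, and crypts in which stem cells divide. Below it lie connective tissue, vessels, immune cells and nerves, and outside these lie coats of smooth muscle. In mammals and birds the ileum is the main place where bile acids are taken back into the blood, through carriers at both faces of the enterocyte and a carrier protein inside it. The labels name the tissue and no sort of cells, and in such bulk RNA fewer cells of a type and less RNA per cell cannot be told apart.

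Total deposited counts were 16056240, 17289705 and 18106651 in control 1, 2 and 3. Levels are given as FPKM, fragments scaled by gene length and by mapped depth, so that genes of different length can be compared. Genes taken as markers of absorptive cells and of smooth muscle were present at high levels. FABP6, which binds bile acids inside ileal enterocytes, stood at 4617, 3994 and 3632 FPKM. APOA1, an apolipoprotein made by absorptive cells, stood at 689, 1197 and 531 FPKM, and MYH11, the myosin of smooth muscle, at 358, 234 and 323 FPKM.

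A label of sex did not match in all libraries. The W chromosome is carried by hens and not by cocks, and all control birds are labelled male. HINTW, a W-linked gene named Wpkci-7 in the table, stood at 185 FPKM in control 1 and 178 in control 3, against 0.13 in control 2. The other measured genes of the W-linked list, ATP5F1AW, HNRNPKL, UBE2R2L and SPIN1W, followed the same split. They had 0 to 3 counts each in control 2 and at least 231 in each other library. Leaving out genes with few counts in control 1 or 3, 61 genes stood in control 2 at least 10 times below both other libraries. Of these, 11 had names. DBH, at 4, 0 and 5 counts in control 1, 2 and 3, is an example of a gene left out. The 61 include ENPP7 and GFAP, which are not on the W-linked list, so the count is not one of W-linked genes alone. Matching counts for control 1 and control 3 are not given here. Because of the split in W-linked genes, values without control 2 are given for several results. These are the gene count, the leading KEGG class, the joint gene lists, hormones, smooth muscle and the spread between libraries.

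Of the 17623 genes, 12642 (71.7%) reached a mean of 1 FPKM, 12102 did so in each library, and 1413 were listed at 0 in all 3. A count of 0 allows up to 3 counts, or 0.164 to 0.184 CPM (counts scaled by library depth) depending on the library, and this limit covers counting error only. Without control 2 the number at 1 FPKM was 12639. The 71.7% is the share to set beside each count of list genes at 1 FPKM below. Between 10 and 100 FPKM lay 6669 genes, which held 48.1% ± 0.42 (SD, n = 3) of all counts. Only 56 genes had a mean of 1000 FPKM or more, and these held 15.7% ± 0.49 of the counts and 24.3% ± 0.73 of the summed FPKM. The 20 most abundant genes held 10.1%, 10.6% and 10.8% of the counts in control 1, 2 and 3. The 20 genes ranked without control 2 held 9.82%. Reaching 50% of the counts took 832, 771 and 810 genes.

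The head of the list joined mitochondrial energy genes, antigen presentation, bile acid binding and a gut peptide. Of the 40 named genes with the highest mean FPKM, 7 came from the mitochondrial genome, 9 coded for ribosomal proteins, 3 belonged to antigen presentation and 4 to the enterocyte lists. COX1, COX3 and COX2, the subunits of cytochrome c oxidase that mitochondria encode themselves, led with means of 11371 ± 1058, 9271 ± 1891 and 7488 ± 1110 FPKM (SD, n = 3). CD74, the invariant chain that escorts MHC class II molecules, followed at 5638, 6101 and 6137 FPKM. B2M, the light chain of MHC class I, stood at 4273, 5136 and 3867 FPKM.

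Next in order came FABP6 and GUCA2A. GUCA2A codes for guanylin, a peptide released into the gut lumen that steers salt and water secretion, and it stood at 3729, 5037 and 2982 FPKM. EEF1A1, which brings transfer RNAs to the ribosome, had a mean of 3823 ± 295 FPKM. The cytoskeletal actins ACTG1 and ACTB had 3482 ± 177 and 2660 ± 86.5 FPKM (SD, n = 3). A locus annotated as Muc2, the gel-forming mucin of goblet cells, stood at 3119, 3201 and 2777 FPKM. It ranked 11 by FPKM and 127 by CPM, which is not scaled by gene length.

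The order of these genes was not fixed between libraries. In 36 of 40 neighbouring pairs of the ranking, counting the gene after the last, the library values of the higher gene and the lower gene overlapped. The 3 libraries shared 28 of their 40 most abundant genes and 17 of their 20. ACTB was among the steadier of these genes, at 2651, 2578 and 2751 FPKM. IGLL5, the name the table gives to an immunoglobulin light chain locus, was among the least steady, at 2437, 1161 and 2752 FPKM.

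**Figure D1:**
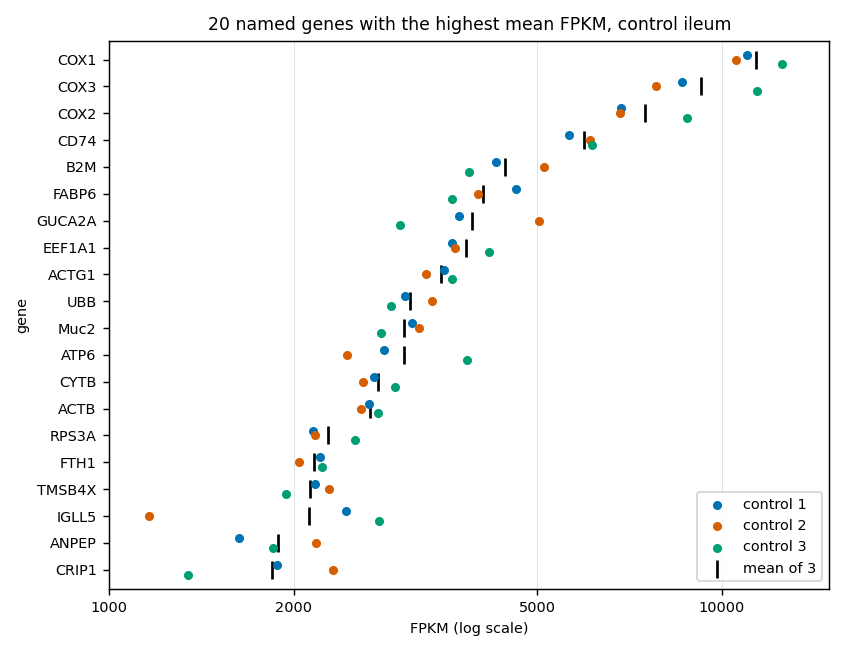
FPKM on a log axis for the 20 named genes with the highest mean, 1 gene per line, with a point for each control library and a bar for the mean of 3. COX1 leads at 10546 to 12563 FPKM, and IGLL5 has widely spaced points while ACTB has points close together.

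The machinery of protein synthesis was expressed at a high and even level. Of 72 genes for cytosolic ribosomal proteins measured, 71 reached 1 FPKM, against 71.7% of all genes, with a median of 646 FPKM where the median over all genes was 6.8. Together they held 9.01%, 9.15% and 9.51% of the summed FPKM. RPS3A, of the small subunit, was the highest, at 2279 ± 209 FPKM (SD, n = 3). RPS6, RPL17, RPS23 and RPL39 stood apart from this evenness, the last pair chosen after their values were seen. RPS6 had 1090.4, 1955 and 1137 FPKM and RPL17 had 977, 1697 and 984 FPKM, with control 2 high in both. RPS23 followed them at 695, 1189.8 and 745 FPKM. RPL39 was lowest in control 2, at 731, 481 and 727 FPKM. RPS6 and RPL17 are carried on the Z chromosome in chickens, and the part that sex chromosomes had in these values was not tested. Reads of ribosomal protein genes can be shared with near-identical copies, so levels of single members are uncertain.

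The 13 protein genes of the mitochondrial genome held 7.10%, 6.84% and 8.67% of the summed FPKM. Each of the 13 was highest in control 3, where 33.9% of all genes that passed a filter on low counts, called kept genes from here on, were highest. COX3 stood at 8609, 7800 and 11404 FPKM, and ATP6, a subunit of ATP synthase, at 2805, 2446 and 3837 FPKM. ND6, a subunit of complex I encoded on the other strand, was the lowest of them at a mean of 28.8 FPKM. The 73 measured genes of mitochondrial ribosomal proteins, which the nucleus encodes, all reached 1 FPKM with a median of 22.5 FPKM. Their share was 0.415%, 0.415% and 0.395% of the summed FPKM and was lowest, not highest, in control 3.

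The deposited KEGG annotation covered 4621 genes (26.2%) in 41 classes, and these genes held 49.3%, 48.5% and 49.7% of the counts in control 1, 2 and 3. Where a gene belonged to several classes its counts were divided equally among them. Translation held the most, at 6.93%, 6.74% and 7.29% of the counts, and 380 of its 389 genes reached 1 FPKM. Without control 2 its share was 7.11%. Global and overview maps, which gather general metabolism, held 5.09% ± 0.12 (SD, n = 3). Transport and catabolism held 4.20% ± 0.086, and folding, sorting and degradation 3.19% ± 0.12. Cellular community, led by the actins ACTG1 and ACTB and the myosin light chain MYL6, held 2.83% ± 0.066.

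Signal transduction had 897 genes, more than any of those but the overview maps, and held 2.80% ± 0.023 of the counts. Energy metabolism had 141 genes, a median of 59.7 FPKM and 2.03% ± 0.17 of the counts. Its share moved with the settings, to 0.913% without the 20 most abundant genes, 5.30% with whole counts given to each class and 3.33% with the overview maps left out. In the last case, added after the data were seen, it passed signal transduction, at 2.87%. Lipid metabolism held 0.993% ± 0.035, carbohydrate metabolism 1.23% ± 0.025 and the immune system class 1.20% ± 0.044. The class named circulatory system held 2.35% ± 0.20, and its leading genes in the annotation were COX1, COX3, COX2 and CYTB rather than genes of vessels. Endocrine system, at 2.16%, 2.25% and 1.95%, was led by FABP6 and UBB, a gene for ubiquitin. Class names here therefore stand for the genes assigned to them.

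**Figure D2:**
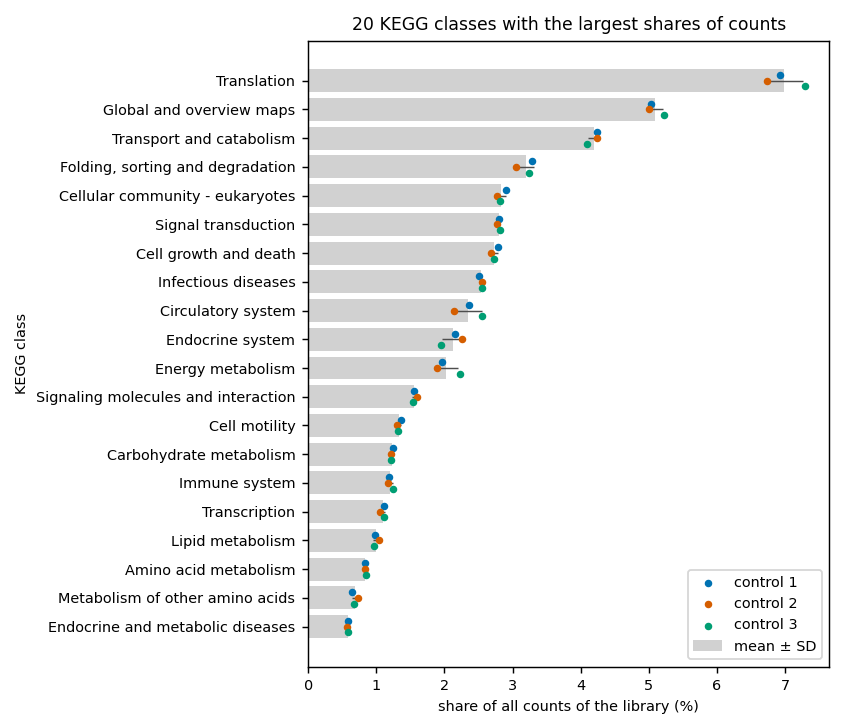
Share of all counts of a library, in percent, for the 20 KEGG classes with the largest shares, with bars for the mean, lines for the SD and a point for each control library. Translation is the longest bar at 6.98%, and the libraries lie close together in most classes.

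The enterocyte lists, 8 lists with 180 measured genes, held 5.19%, 6.16% and 4.81% of the summed FPKM in control 1, 2 and 3. Of the 180, 163 reached 1 FPKM. Bile acid genes were measured at 13 of 14 members, of which 12 reached 1 FPKM. SLC10A2, which takes bile acids up from the lumen, stood at 56.6, 65.6 and 58.3 FPKM. SLC51A and SLC51B form the exporter at the blood side and had 140.0 ± 8.35 and 25.8 ± 2.99 FPKM (SD, n = 3). FABP6 thus exceeded SLC10A2 by 81.5, 60.9 and 62.3 times.

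The regulators of bile acid handling given here were below FABP6 and SLC51A, while NR1H4 was above SLC51B. NR1H4, the nuclear receptor that senses bile acids, stood at 51.8, 63.4 and 47.2 FPKM. NR0B2, a repressor that this receptor induces in mammals, had 25.4 ± 3.13 FPKM. FGF19, the hormone that carries the bile acid signal from ileum to liver in mammals and birds, stood at 4.10, 2.07 and 3.27 FPKM. ABCB11, the bile salt export pump of the liver, was near 0 at 0.04, 0.04 and 0.10 FPKM.

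Proteins that bind fatty acids and retinol inside cells spanned a wide range. FABP1 had 1088, 1352 and 857 FPKM and FABP2 had 783, 809 and 506 FPKM, with control 3 lowest in both. FABP6 exceeded FABP2 by 5.90, 4.94 and 7.17 times. RBP2, the retinol binder of enterocytes, went the other way, at 150.0, 55.9 and 197 FPKM. FABP4 and RBP7, both known from fat tissue and vessels, were high in control 2. FABP4 had 93.0, 288 and 103 FPKM, and RBP7 had 29.5, 166 and 48.0 FPKM.

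Genes that package absorbed fat were led by APOA1. MTTP, which loads lipid onto lipoprotein particles, had 154, 173 and 130.3 FPKM. APOB, the backbone of those particles, had 45.8, 75.3 and 28.2 FPKM. APOA1 and APOB were both highest in control 2 and lowest in control 3. SAR1B, which moves such particles out of the endoplasmic reticulum, was even at 94.3, 94.7 and 95.6 FPKM. APOA4, at 41.2 ± 0.52 FPKM (SD, n = 3), was also even.

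Brush border enzymes were the most abundant enterocyte list by median, at 201 FPKM over 17 measured genes, 16 of them at 1 FPKM or more. Of the 17, 10 were lowest in control 1, beside 31.8% of the kept genes. Peptidases led. ANPEP, aminopeptidase N, stood at 1626, 2172 and 1850.3 FPKM, and MEP1A, a meprin subunit, at 902, 1770 and 1664 FPKM. ENPEP, glutamyl aminopeptidase, had 838 ± 151 FPKM (SD, n = 3). SI, sucrase-isomaltase, had 282, 232 and 209 FPKM, and LCT, lactase, 7.58, 1.76 and 2.03 FPKM. TMPRSS15, enteropeptidase, which is known from the duodenum, had a mean of 0.56 FPKM.

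Nutrient transporters held 0.383%, 0.593% and 0.370% of the summed FPKM, and 28 of 29 measured reached 1 FPKM. SLC6A19, a carrier of neutral amino acids, was the highest at 646, 1134 and 586 FPKM. SLC15A1, the peptide carrier, had 228, 574 and 268 FPKM. SLC5A1, the sodium-glucose carrier, had 244, 232 and 191 FPKM and did not share the high value of control 2. SLC3A1 and SLC7A9, which pair to carry basic amino acids and cystine, had 176 ± 29.8 and 163 ± 61.1 FPKM (SD, n = 3). SLC2A5, the fructose carrier, had 26.1, 50.8 and 51.2 FPKM. Among genes for ion and mineral handling, FTH1, the heavy chain of the iron store ferritin, led at 2157 ± 102 FPKM, and ATP1B1, the beta subunit of the sodium pump, had 394 ± 8.65 FPKM.

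Transcription factors that define the intestinal epithelium were expressed at moderate levels, and 22 of 24 measured reached 1 FPKM. ELF3 was the highest, at 172, 176 and 189 FPKM. CDX1, a regulator of intestinal identity, had 109 ± 7.37 FPKM, and HNF4G and HNF4A, nuclear factors of absorptive cells, had 105 ± 7.78 and 44.4 ± 6.04 FPKM (SD, n = 3). GATA5 and GATA6 had means of 108 and 38 FPKM. GATA4, which in mouse marks the intestine before the ileum, had 1.17, 0.05 and 0.05 FPKM. CDX2 was split over 2 assembled loci whose names rest on the authors' annotation. The locus with more counts had 37.9, 64.0 and 57.0 FPKM and the other 3.35, 36.6 and 26.01 FPKM, with control 1 lowest in both.

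Structural genes of the epithelium were high. LGALS2, a galectin, had 1943, 1900.3 and 1552 FPKM, and EPCAM, an adhesion molecule of epithelia, 988, 1182 and 877 FPKM. KRT20, a keratin of mature enterocytes, had 463, 463 and 315 FPKM. VIL1 and MYO1A, which build the core of the microvillus, had 325 ± 18.6 and 336 ± 20.4 FPKM (SD, n = 3). Of 16 claudins, proteins of tight junctions, 7 reached 1 FPKM, beside 71.7% of all genes. CLDN10 led them at 268, 305 and 282 FPKM.

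**Figure D3:**
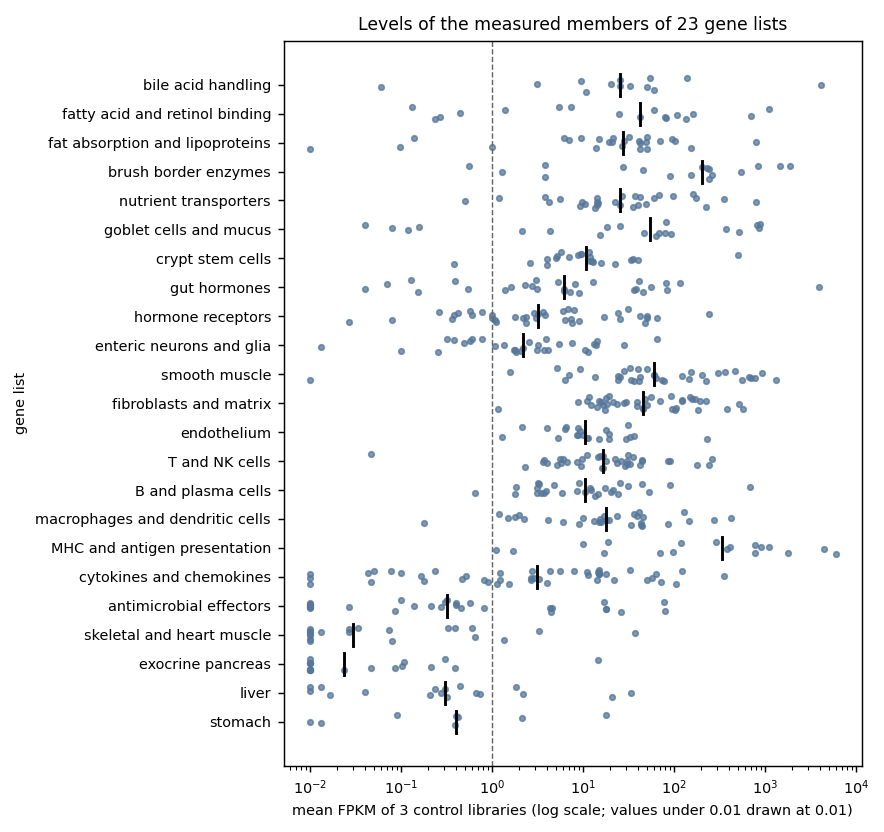
Mean FPKM over the 3 control libraries on a log axis for each measured member of 23 gene lists, with a bar for the list's median and a dashed line at 1 FPKM. Brush border enzymes and antigen presentation have the highest medians, 201 and 340.0 FPKM, and the lists of skeletal muscle, pancreas, liver and stomach lie mostly under 1 FPKM.

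By mean FPKM the goblet and mucus list was led by CLCA1, PIGR and AGR2, with the MUC2 locus of more counts next. The MUC2 name fell on 2 assembled loci, and the locus with more counts stood at 505, 488 and 577 FPKM. The shorter locus given above had higher FPKM but fewer counts, at 13520, 15000 and 13574 against 26321, 27427 and 33926. The list held 0.764% ± 0.028 of the summed FPKM with the locus of more counts alone and 1.35% ± 0.073 with both (SD, n = 3). FPKM of 2 loci under 1 gene name may not add up, so the second share is uncertain. CLCA1, a protein of mucus, had 818, 1216 and 629 FPKM. PIGR, the receptor that carries antibodies to the lumen, had 901, 753 and 928 FPKM. AGR2, which folds mucins, had 915, 662 and 899 FPKM. MUC5AC, a mucin known from the stomach, was low at 18.2 ± 5.88 FPKM.

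Crypt and dividing cells left a smaller signal. OLFM4, a gene of crypt stem cells in mammals, was high at 501, 541 and 462 FPKM. LGR5, a stem cell receptor, had 13.6, 11.3 and 14.2 FPKM. All 31 measured cell cycle genes reached 1 FPKM, and 27 of 31 were highest in control 1, where 31.3% of all kept genes were highest. STMN1, a microtubule regulator of dividing cells, had 120.3, 84.4 and 89.6 FPKM. CDK1, the kinase that drives mitosis, had 76.2, 48.3 and 51.3 FPKM. PCNA, the clamp of DNA replication, was even at 78.5, 75.2 and 76.7 FPKM.

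Hormone and peptide genes held 0.828%, 1.10% and 0.666% of the summed FPKM, nearly all of it from GUCA2A. Without GUCA2A the share was 0.110%, and without control 2 it was 0.747%. Of 28 measured, 22 reached 1 FPKM, beside 71.7% of all genes. NTS, neurotensin, was next at 112, 141 and 98.8 FPKM. GCG, the precursor of the glucagon-like peptides, had 82.2, 90.8 and 76.4 FPKM. The 3 values of GCG lay below those of NTS in each library.

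CCK, cholecystokinin, stood at 53.3, 77.2 and 37.5 FPKM. SCT, secretin, had 34.0, 64.0 and 26.1 FPKM, and MLN, motilin, 35.2, 44.6 and 34.1 FPKM. These peptides and GUCA2A, NTS and GCG were highest in control 2 and lowest in control 3, an order that other hormone genes below did not share. VIP and GAL, peptides of enteric nerves, were steadier. VIP had 46.5, 44.9 and 46.0 FPKM and GAL, galanin, 38.1, 36.2 and 34.6 FPKM. The nerve peptides TAC1, PENK, NPY and GRP were lower and varied more, with GRP at 3.09, 1.13 and 2.69 FPKM.

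SST, somatostatin, had 18.6, 8.81 and 11.5 FPKM. PYY, peptide YY, which in mammals is made with GCG in the distal gut, had 8.53, 6.03 and 7.12 FPKM. GIP, a hormone of the upper small intestine, had 10.2, 4.05 and 4.14 FPKM, so that GCG exceeded it by 8.09, 22.4 and 18.5 times. SST, PYY and GIP were lowest in control 2, as was TPH1 of the same list, at 3.65, 2.06 and 3.52 FPKM. GHRL, ghrelin, was near 0 at 0, 0.40 and 0.06 FPKM, and INS, insulin, had 1 count in control 1 and 0 in the others. ADIPOQ, adiponectin, a product of fat cells in mammals, had 94.3, 76.1 and 77.0 FPKM.

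General secretory genes of hormone cells spanned a wide range. CHGA, a protein of secretory granules, stood at 226, 172 and 189 FPKM. CPE, which trims peptide precursors, had 48.0 ± 3.99 FPKM, and SCG2, another granule protein, had 35.8 ± 9.91 FPKM (SD, n = 3). The convertases PCSK1 and PCSK2 had 17.7 ± 1.98 and 12.7 ± 2.37 FPKM. SCG5, SCG3, CHGB and SYP were lower, at means of 9.04, 4.84, 3.00 and 0.87 FPKM. Fate factors were low, with NEUROD1 at 1.92, 2.37 and 2.43 FPKM.

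Among 39 hormone receptor genes, 29 reached 1 FPKM, close to the 71.7% of all genes. GUCY2C, the receptor of guanylin, was the highest at 232, 276 and 223 FPKM, and GUCA2A exceeded it by 16.1, 18.2 and 13.4 times. Metabolic receptors followed at moderate levels. ADIPOR2 had 64.4 ± 1.74 FPKM and INSR, the insulin receptor, 47.6 ± 0.42 FPKM (SD, n = 3). Several receptors for other peptides above were low. SCTR for secretin had 7.39 ± 0.49, GLP2R 6.32 ± 1.29, NTSR1 3.85 ± 2.48 and MLNR 2.36 ± 0.25 FPKM.

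**Figure D4:**
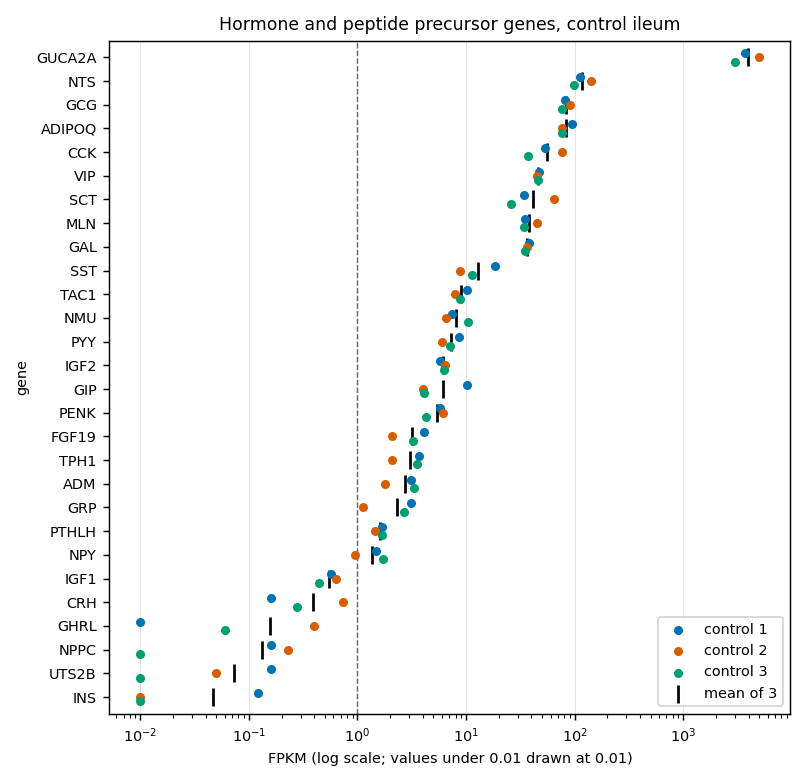
FPKM on a log axis for the 28 measured hormone and peptide genes, with a point for each control library, a bar for the mean and a dashed line at 1 FPKM. GUCA2A stands at 2982 to 5037 FPKM, far above NTS, and IGF1, CRH, GHRL, NPPC, UTS2B and INS lie under 1 FPKM.

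The immune lists, 8 lists with 230 measured genes, held 4.79%, 5.05% and 4.54% of the summed FPKM, and 4.66% without control 2. As a share of counts they held 4.23%, against 6.08% for the enterocyte lists. Of the 230, 208 reached 1 FPKM. Antigen presentation alone held 3.21%, 3.64% and 3.06%. Besides CD74 and B2M it held the class I genes BF1 and BF2 and the class II genes BLB1 and BLB2. The list also holds CALR, PDIA3 and CANX, at means of 769, 408 and 96.5 FPKM, so its share is not one of MHC genes alone. BF2 had 1071, 2511 and 1819 FPKM while BF1 had 1623, 1171 and 505 FPKM. Summed, these 2 class I genes had 2694, 3682 and 2324 FPKM.

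The class II pair showed the same kind of shift. BLB1 had 542, 1098 and 1084 FPKM and BLB2 had 1318, 716 and 291 FPKM, and together they had 1860, 1815 and 1374 FPKM. Members of each pair resemble each other closely and differ between MHC haplotypes, so that reads may be split between them and the level of each alone is uncertain. DMA, which helps load class II molecules, was even at 284, 303 and 292 FPKM. CIITA, the activator of class II genes, had 17.2 ± 2.48 FPKM (SD, n = 3).

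The T cell list held similar shares of the summed FPKM in the 3 libraries, the highest 1.11 times the lowest. CD3D and CD3E, chains of the T cell receptor complex, had 265, 250.0 and 269 FPKM and 245, 226 and 266 FPKM. PTPRC, which is common to leukocytes, had 89.7 ± 5.07 FPKM, and CD8A and CD4 had 31.5 ± 2.77 and 15.3 ± 1.28 FPKM (SD, n = 3). FOXP3, a factor of regulatory T cells in mammals, had 26.9, 23.8 and 28.1 FPKM. GZMA, a protease of killer cells, differed from the rest of the list, at 109, 303 and 127 FPKM. Of 36 kept genes of the list, 21 were lowest in control 2 and 25 were highest in control 3, beside 34.6% and 33.9% of all kept genes.

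B and plasma cell genes were less even. JCHAIN, which joins secreted antibodies, stood at 764, 462 and 836 FPKM, and TXNDC5, a folding enzyme of plasma cells, at 68.2, 32.5 and 59.8 FPKM. XBP1, a factor of secretory cells in general, had 89.2, 83.6 and 95.3 FPKM. CD79B, part of the B cell receptor, had 11.7, 6.47 and 7.35 FPKM. The list held 0.241%, 0.165% and 0.248% of the summed FPKM, with 18 of 28 kept genes lowest in control 2. Without JCHAIN, the control 2 share was 0.831 times the mean of the other libraries, against 0.676 times with it.

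Macrophage and dendritic cell genes were led by CTSS and LGMN, proteases that process antigens, at 422 ± 35.3 and 278 ± 34.0 FPKM (SD, n = 3). C1QA, a complement gene of tissue macrophages, had 103, 53.3 and 104 FPKM. CSF1R, the growth factor receptor of macrophages, had 46.0, 34.3 and 42.3 FPKM. The list as a whole held 0.301% ± 0.015 of the summed FPKM.

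Cytokine genes were mostly low, and 31 of 46 measured reached 1 FPKM, close to the 71.7% of all genes. TNFSF10, a ligand of death receptors, led with 356, 402 and 305 FPKM. MIF had 122, 96.4 and 152 FPKM, and CCL21, a chemokine that guides lymphocytes, had 147, 72.2 and 98.6 FPKM. IL15, which sustains lymphocytes of the epithelium in mammals, had 75.3, 89.5 and 52.9 FPKM. TGFB1, which restrains immune cells, had a mean of 57.8 FPKM.

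Several other interleukins and the interferons IFNG and IFNW1 were at low levels. IL1B had 1.03, 1.15 and 1.20 FPKM. IL22, which acts on epithelia, had 2.77 ± 0.96 FPKM, IFNG had 0.23, 0.39 and 0.78 FPKM, and IL17A, IL6 and IL10 were at or under 0.37 FPKM in each library. IL4, IL13 and IFNW1 were listed at 0 in each library. Of 29 measured antimicrobial genes, 9 reached 1 FPKM, led by LBP, which binds bacterial lipopolysaccharide, at 79.1 ± 10.2 and LYZ, lysozyme, at 77.1 ± 3.77 FPKM (SD, n = 3). AvBD1, a defensin, had 0.38, 1.40 and 0.67 FPKM, and the defensins AvBD5, AvBD8, AvBD9, AvBD11, AvBD12 and AvBD13 were listed at 0.

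Smooth muscle genes held 1.62%, 1.19% and 1.64% of the summed FPKM, with 36 of 37 measured at 1 FPKM or more. ACTG2, the actin of gut smooth muscle, stood at 1559, 987 and 1461 FPKM. TAGLN, an actin binder, had 839.6, 579 and 934 FPKM, MYL9, a myosin light chain, 829, 491 and 784 FPKM, and DES, desmin, 644, 543 and 810.4 FPKM. Control 2 was the lowest in these genes and in 33 of 36 kept genes of the list, beside 34.6% of all kept genes. Without control 2 the share was 1.63%. Actin genes are close in sequence, and the split of reads among ACTG2, ACTA2 and ACTA1 is uncertain.

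Connective tissue stayed level where muscle did not. COL3A1, a fibrillar collagen, had 571, 572 and 576 FPKM, SPARC, a matrix protein, 508, 520.1 and 532 FPKM, and DCN, decorin, 182 ± 9.97 FPKM (SD, n = 3). The list of 40 measured genes held 0.730%, 0.746% and 0.751% of the summed FPKM. COL3A1 exceeded MYH11 by 1.59, 2.44 and 1.78 times. In the endothelium list, PLVAP, a protein of vessel walls, led with 240.5, 197 and 251 FPKM, and PECAM1 had 31.1 ± 2.31 FPKM.

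The nerve and glia list held a low and even share, at 0.0392%, 0.0405% and 0.0396% of the summed FPKM. Single members could differ, with GFAP at 0.60, 0.05 and 0.51 FPKM. ERBB3, a receptor that glia and epithelia both use, led at 65.8 ± 2.32 FPKM, while UCHL1 and TUBB3, of neurons, had 13.3 ± 0.45 and 10.4 ± 0.93 FPKM (SD, n = 3). KIT and ANO1, of the pacemaker cells of the gut wall, had 5.81 ± 0.92 and 5.03 ± 1.15 FPKM.

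Genes of other organs were mostly at or near 0. In the pancreas list 1 of 17 measured genes reached 1 FPKM, AMY1A, an amylase, at 14.5 ± 4.01 FPKM, while PNLIP, CEL and CPA1 were listed at 0. In the liver list 4 of 17 did, led by F2, prothrombin, at 34.0 ± 10.3 FPKM, and ALB, albumin, had 0.32 ± 0.17 FPKM (SD, n = 3). In the stomach list 2 of 8 did, GIF, intrinsic factor, at 18.9, 22.5 and 12.4 FPKM and TFF2 at 2.13 ± 1.03 FPKM. In the list of skeletal and heart muscle 3 of 20 did, with ACTA1 at 48.4, 23.2 and 39.3 FPKM. Hemoglobin genes of blood cells were low, with HBA1 at 18.5, 39.8 and 52.8 FPKM.

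The libraries were compared over all 17623 genes on the scale of log2(FPKM + 1). Pearson's r across genes was 0.984 for control 1 with 2, 0.989 for 1 with 3 and 0.983 for 2 with 3. Spearman's rho was 0.980, 0.986 and 0.980 in the same order. Genes are not independent replicates, and these values describe the libraries only. After scaling by edgeR's TMM factors, 95.9%, 96.9% and 95.8% of the 13173 genes kept by edgeR's filter on low counts lay within 2-fold of each other in these pairs.

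No pair of libraries matched within sampling noise. Chi-square per degree of freedom over genes was 32.3, 23.8 and 40.8 for the same pairs, so no pair was treated as a single library under both names. This compares the libraries with counting noise alone and does not show that they came from separate birds. The common biological coefficient of variation, the spread between libraries beyond counting noise, was 17.9% in edgeR. Without control 2 it was 15.7%.

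Several gene lists differed together between libraries. Most enterocyte lists were high and smooth muscle low in control 2. The share of bile acid handling in control 2 was 0.988 times the mean of the others, and 1.08 times without FABP6. Identity factors and microvillus genes had 1.11 and 1.19 times that mean. Of 164 kept genes in the enterocyte lists, 107 were highest in control 2, where 34.8% of all kept genes were highest, and 85 were lowest in control 3, where 33.7% were lowest. Brush border enzymes had 0.597, 1.21 and 0.723 times the share of smooth muscle in control 1, 2 and 3. Nutrient transporters had 0.237, 0.497 and 0.225 times that share.

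The leading gene of a list carried more of the difference in some lists than in others. Nutrient transporters in control 2 had 1.58 times the mean share of controls 1 and 3, and 1.45 times without SLC6A19. Smooth muscle had 0.732 times, and 0.747 times without ACTG2. Fat absorption genes had 1.52 times, and 1.19 times without APOA1. Goblet cells, T cells, fibroblasts and nerves differed less, with the highest share of each list 1.07, 1.11, 1.03 and 1.03 times the lowest. The T cell share of control 2 includes GZMA, at 303 FPKM against 109 and 127, while most kept genes of that list were lowest there. A T cell share without GZMA is not given here. The goblet list in control 2 had 1.06 times the mean of controls 1 and 3, and 0.917 times without CLCA1. With both MUC2 loci, whose FPKM may not add up, its shares were 1.36%, 1.42% and 1.27%. The share of enterocyte genes in controls 1 and 3 alone averaged 5.0%, against 6.16% in control 2. The labels do not give the layers of the wall that were sampled, and their part in these differences was not tested. W-linked genes in control 2 had 0.000946 times the mean share of controls 1 and 3. The contrasts of control 2 with controls 1 and 3 therefore fall on the same split as the W-linked genes. Sex cannot be separated here from other differences of control 2, and its part was not tested.

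**Figure D5:**
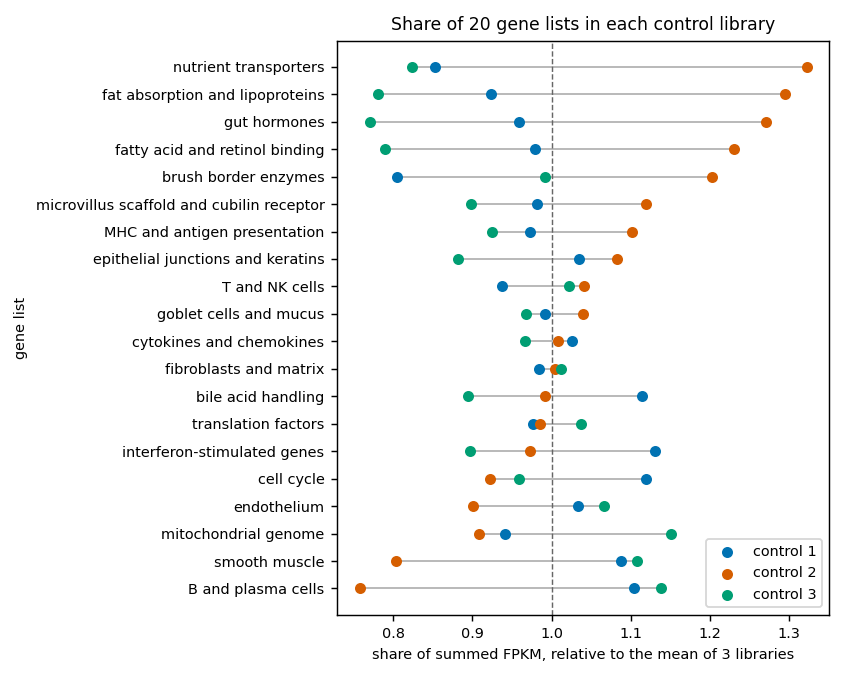
Share of the summed FPKM held by 20 gene lists in each control library, divided by the mean of the 3 libraries, with a dashed line where a library equals the mean. Control 2 lies to the right for nutrient transporters and brush border enzymes and to the left for smooth muscle and B and plasma cells, and fibroblasts have the 3 points close together.

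Few genes stood at least 2-fold apart from both other libraries. Of the kept genes, 48 were above in control 1 (0.364%) and 77 below (0.585%), 120 were above in control 2 (0.911%) and 91 below (0.691%), and 63 were above in control 3 (0.478%) and 67 below (0.509%). HINTW and the other W-linked genes named above, near 0 in control 2, are not kept genes and fall outside these counts. Among named kept genes with a mean of at least 10 CPM, ENPP7, a sphingomyelinase of the brush border, had the widest spread. ENPP7 stood at 62.8, 0.74 and 19.6 FPKM. Its gene-wise coefficient of variation was 95.2%. FUT6, a fucosyltransferase, followed with 86.5%, at 48.4, 25.1 and 1.04 FPKM. The median over all kept genes in that range was 13.9%.

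Control 1 was marked by high GLDC, an enzyme of glycine breakdown, at 6.87, 0.58 and 1.21 FPKM, and by high LCT. Below in control 1 were HHLA2, an immune checkpoint ligand, at 12.3, 53.2 and 63.7 FPKM, and TMSB15B, a thymosin, at 17.7, 68.1 and 126 FPKM. Control 3 was marked by low FUT6, BLB2 and 1 locus named ZAN, after a sperm protein, at 43.4, 37.8 and 2.93 FPKM. Another locus of that name was more abundant, at 566, 1193 and 286 FPKM. Above in control 3 was LAPTM4B, a lysosomal membrane gene, at 7.06, 4.77 and 18.7 FPKM.

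The named genes furthest above both other libraries in control 2 were RBP7, CHST14, LPL, SLC34A2 and FABP4. CHST14, a sulfotransferase, had 5.88, 26.9 and 8.09 FPKM. LPL, lipoprotein lipase, had 7.07, 20.7 and 6.36 FPKM. SLC34A2, a phosphate carrier, had 2.33, 11.7 and 4.14 FPKM. Among kept genes, control 2 was low in ENPP7 and in OSER1, at 9.49, 1.12 and 8.75 FPKM. It was also low in CFP, properdin, a complement gene, at 12.4, 2.45 and 11.9 FPKM.

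At the other end, several genes barely differed between libraries. CORO7, a coronin of the Golgi, had 31.5, 30.2 and 31.3 FPKM. SSRP1, a histone chaperone subunit, had 43.9, 42.7 and 44.2 FPKM, and HDAC2, a histone deacetylase, 57.8, 55.5 and 58.0 FPKM. Their gene-wise coefficients of variation, shrunk by edgeR, were 10.9%.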

How the data were processed

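Messenger RNA of 3 control ileum libraries was described. Per the labels' protocols, RNA was extracted with TRIzol, and the library kit they give is a small RNA kit. Tools listed in the submitters' processing notes, with no role stated, are DESeq2, StringTie 1.3.1, HISAT2, Bowtie2 and fastp 0.18.0. How fragments were assigned to genes, and the genome build, is not given in the sources used here. The authors deposited expected counts, 8.08% of them not whole (tolerance 1e-09), and FPKM for 17623 genes, 1055 of them assembled loci. A further 12 value columns of the table and the 6 columns of the FOS libraries were not used.

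Names came from the table for 12776 genes and from RefSeq (GRCg7b, through NCBI gene IDs) for 1140, and 3707 had none. Rounded counts were scaled by TMM and kept by filterByExpr in edgeR 4.0.16 (R 4.3.3), which gave the dispersions. The step was tested on simulated data. This filter needs counts in all 3 libraries, so W-linked genes fall outside it. Lists, 40 with 932 of 1064 genes measured, and the groups compared were chosen with earlier results of these data known. A list gene found on several rows was taken at the row with the most counts.

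Genes were named by rule: the 40 with the highest mean FPKM, the leading 5 of each list, all hormone, identity factor, cytokine and W-linked genes described, markers always given, and genes of extreme spread. List genes of lower rank, ribosomal proteins, claudins and receptors named beyond this were chosen after their values were seen. Some genes the rule selects are not reported here. With 1 group and 3 libraries no test was made. Values are mean ± SD where n is given. Depth was 16056240 to 18106651 counts.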

Additional observations from a re-analysis of the deposited data

How the results depend on the processing

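No paired analysis was possible because no result comes from a test between groups. A threshold of 10 FPKM left 7425 genes. The share of the 20 most abundant genes was 11.59% ranked by CPM, 15.54% of summed FPKM and 9.107% with mitochondrial and ribosomal protein genes left out, and 9.824% to 10.84% when 1 library was left out.

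With whole counts given to each class, translation held 7.437%, global and overview maps 13.11%, transport and catabolism 8.237%, folding, sorting and degradation 4.371% and cellular community 6.298%, so that overview maps and not translation came first. As shares of FPKM the same classes held 11.89%, 6.165%, 3.802%, 2.728% and 1.879%. Without the 20 most abundant genes, overview maps held 3.916%, transport and catabolism 4.413% and folding 3.565%. Leaving out the overview maps, a choice made after seeing the data, gave transport and catabolism 4.286%.

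Without their leading gene, enterocyte lists held 4.602%, immune lists 3.647%, hormones 0.1099% and smooth muscle 1.227%, and immune lists held 4.226% of counts where enterocyte lists held 6.082%. Mean Pearson's r was 0.9781 on log2(FPKM + 0.1) and 0.9709 over genes at 1 FPKM, and Spearman's rho was 0.9853 on TMM CPM and 0.9726 over genes at 1 FPKM. With 1 library left out r was 0.9831 to 0.9889, rho 0.9795 to 0.9856 and the coefficient of variation 15.75% to 19%. It was 22.11% with no filter.

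A 4-fold limit left 8 genes above and 9 below in control 1, 9 and 15 in control 2, and 3 and 7 in control 3. A mean of 10 CPM left 12 and 22, 54 and 26, and 7 and 24. Genes with 10 counts in any library, a choice made after seeing the data, gave 143 and 232, 254 and 278, and 218 and 177. The cause of these shifts was not tested beyond the genes each setting adds or removes. For the 53 single classes and lists, recomputed values moved by less than 1 SD between libraries in 183 cases and by more in 112. Depth limits what can be said of genes near 3 counts, and with 3 libraries of 1 group every value is a description.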

Other observations

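Several of the most abundant genes lay outside the deposited KEGG classes. CRIP1, a small zinc-binding protein of gut epithelium, stood at 1879, 2315 and 1343 FPKM. CFD, complement factor D, had 1714, 906 and 1124 FPKM. GNLY, the name the table gives to a granulysin-type gene of killer lymphocytes, had 922, 1231 and 1194 FPKM and was chosen after its values were seen. CRIP1 was highest in control 2, and CFD was lowest there.

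Of 29 measured interferon-stimulated genes, 28 reached 1 FPKM. IFITM3, which blocks viral entry, led with 850.1, 707 and 647 FPKM. IFI6 had 129, 45.3 and 47.7 FPKM and was chosen after its values were seen. Of 28 kept genes, 16 were highest in control 1, beside 31.3% of all kept genes. Heat shock chaperones were led by HSPA8 at 1021, 930 and 1074 FPKM, and 13 of 18 were lowest in control 2, beside 34.6% of all kept genes. HPGDS, a prostaglandin D synthase listed as a marker of tuft cells, had 106, 157 and 134 FPKM, while TRPM5, the ion channel of those cells, had 22.9, 29.5 and 22.8 FPKM. In the PPAR signalling pathway of the annotation, led by FABP6, 35 of 54 kept genes were highest in control 2, and in the lysosome pathway, led by PSAP, 58 of 103 were, beside 34.8% of all kept genes. Both pathways were chosen from the full list after their values were seen.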
